A study of Mus musculus with 12 samples.

Results

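Cholesterol made by the retina's own cells starts from acetyl-CoA, and 29 mouse genes of its synthesis, its movement inside the cell and its control by SREBP and LXR are described here. They were chosen by name from the pathway, not by a measured value, and are 29 of the 56748 entries of the gene table. They comprise 18 enzymes, namely 7 of the mevalonate steps (Acat2, Hmgcs1, Mvk, Pmvk, Mvd, Idi1 and Fdps), 3 of the steps from squalene to lanosterol (Fdft1, Sqle and Lss) and 8 of the steps from lanosterol to cholesterol (Cyp51, Tm7sf2, Msmo1, Nsdhl, Hsd17b7, Ebp, Sc5d and Dhcr7). The others are 5 genes of SREBP control (Insig1, Insig2, Scap, Srebf1 and Srebf2), 4 of transport and esterification (Npc1, Npc2, Stard4 and Soat1) and the LXR receptors Nr1h2 and Nr1h3. The question was whether rods or other retinal cells carry this pathway, and whether the loss of Abca4 moved it.

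RNA was sequenced from 12 libraries, 3 in each of 4 groups, of mice aged 2 months. All mice, controls included, carried RiboTag, a tagged ribosomal protein, switched on by i75-Rod-Cre, so that translating ribosome affinity purification (TRAP) drew ribosome-bound RNA from cells with rod Cre. The control group was RiboTag;i75-Rod-Cre and the knockout group RiboTag; Abca4-/-;i75-Rod-Cre, where Abca4 encodes the outer segment transporter that clears retinal derivatives. From each genotype there were TRAP libraries and libraries of whole retina lysate, after cycloheximide perfusion and freezing. Because TRAP takes only RNA on tagged ribosomes, a difference between TRAP and whole retina holds the makeup of cells, the RNA per cell and the loading of ribosomes, which cannot be told apart. Nor can the input to cDNA synthesis, 10 ng for each TRAP library and 5 ng for each retina library.

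Cells make cholesterol by joining acetyl units through HMG-CoA and mevalonate to isoprenoids, squalene and lanosterol, whose demethylation and rearrangement give cholesterol. SREBP-2, from Srebf2, drives the enzymes of this route, and SREBP-1, from Srebf1, drives mainly fatty acid synthesis. SCAP escorts both SREBPs from the endoplasmic reticulum for cleavage when sterols are low, and the INSIG proteins hold them there when sterols are high. Insig1 is itself a target of SREBP. LXR receptors sense oxysterols and turn on the export of cholesterol.

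RefSeq promoter windows of build GRCm38.p6, 300 bases each, matched 24 of the 29 genes in 33 windows. Stard4, Fdps, Fdft1, Sqle and Npc1 were not in that table. Letters of 3 known elements were searched on both strands, namely TCACNCCAC, a form of the sterol regulatory element that SREBP binds, CCAAT, bound by NF-Y, and GGGCGG, bound by Sp1. The sterol element letters were in 1 of the 33 member windows, that of Hmgcs1, 137 to 129 bases before the start, and in 1.24% of all 32851 windows. CCAAT was in 63.6% of the member windows and 37.4% of all windows, and GGGCGG in 75.8% and 35.7%. The letters are a description of the window and were not tested against expression. The 250 bases before the start are shown for Hmgcs1, which holds the sterol element, for Insig1 and Srebf2, the members of SREBP control furthest below whole retina in TRAP, and for Idi1 and Sc5d, the enzymes furthest above it. Capitals mark matches to any of the 3 motifs, read 5′ to 3′ on the gene's strand, with ATTGG and CCGCCC as the other-strand readings of CCAAT and GGGCGG.
Hmgcs1, chr13:119690101-119690350, plus strand: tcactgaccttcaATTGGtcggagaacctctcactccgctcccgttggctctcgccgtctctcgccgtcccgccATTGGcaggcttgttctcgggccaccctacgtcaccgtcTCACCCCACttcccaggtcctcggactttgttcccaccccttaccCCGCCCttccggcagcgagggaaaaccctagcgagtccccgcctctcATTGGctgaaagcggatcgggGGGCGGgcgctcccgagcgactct
Insig1, chr5:28071162-28071411, plus strand: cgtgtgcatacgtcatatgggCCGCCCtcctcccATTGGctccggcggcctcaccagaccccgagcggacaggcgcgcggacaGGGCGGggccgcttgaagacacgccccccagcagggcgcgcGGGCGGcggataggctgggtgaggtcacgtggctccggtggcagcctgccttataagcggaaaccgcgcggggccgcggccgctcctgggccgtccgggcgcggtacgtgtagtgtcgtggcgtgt
Srebf2, chr15:82147019-82147268, plus strand: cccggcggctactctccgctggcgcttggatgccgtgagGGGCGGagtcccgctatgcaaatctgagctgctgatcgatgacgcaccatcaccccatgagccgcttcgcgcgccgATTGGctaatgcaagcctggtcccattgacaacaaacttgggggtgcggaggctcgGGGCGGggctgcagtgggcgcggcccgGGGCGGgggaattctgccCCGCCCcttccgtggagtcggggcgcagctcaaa
Idi1, chr13:8885356-8885605, plus strand: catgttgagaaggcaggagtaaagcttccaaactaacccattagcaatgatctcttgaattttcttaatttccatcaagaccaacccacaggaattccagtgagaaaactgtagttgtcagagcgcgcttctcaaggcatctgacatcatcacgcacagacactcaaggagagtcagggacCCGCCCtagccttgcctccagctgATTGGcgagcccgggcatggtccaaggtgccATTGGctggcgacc
Sc5d, chr9:42264301-42264550, minus strand: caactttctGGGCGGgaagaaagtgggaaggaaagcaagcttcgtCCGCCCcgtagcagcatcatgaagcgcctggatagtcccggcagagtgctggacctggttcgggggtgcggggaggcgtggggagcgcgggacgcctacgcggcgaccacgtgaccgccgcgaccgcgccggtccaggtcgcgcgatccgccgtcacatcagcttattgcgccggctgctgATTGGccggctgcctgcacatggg

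The fractions separated as the labels say. In control mice the 12 rod marker genes were all higher in TRAP, with a median log2 difference of 1.28, and their summed level was 97700 to 99480 TPM in TRAP (a level set by gene length and library depth) and 51280 to 56210 in whole retina. All 11 Müller glia markers were lower, with a median of -4.31, and their summed level fell from 2633 to 4208 TPM in whole retina to 127 to 139 TPM in TRAP. Of 7 cone markers 6 were lower and 1 higher, and the same held for 7 bipolar markers. All 7 markers of amacrine cells, of ganglion cells, of microglia and of pigment epithelium were lower, as were 5 of 7 vascular markers and 3 of the 4 tested markers of astrocytes and oligodendrocytes. Vtn, on the vascular list, was higher and held nearly all of that list's level.

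Abca4, the targeted gene, had 53193 to 61017 scaled counts in control TRAP and 37619 to 38929 in control retina. The libraries labelled knockout replicates 1 and 2 held 0.349% to 0.958% of the control mean. The libraries labelled knockout replicate 3 held 23.5% in TRAP and 21.3% in whole retina, and the count of calls by genotype and the main values by genotype are given with and without them.

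All 29 genes passed the filter of at least 10 scaled counts in at least 3 libraries in every comparison. In control TRAP their mean levels ran from 2.57 TPM for Tm7sf2 to 114 TPM for Scap, with a median of 26.7 TPM, beside a median of 19.5 TPM over the 11684 genes at 1 TPM or more. In control whole retina the median of the 29 was 34.9 TPM. The 18 enzymes summed to 527 ± 23.7 TPM in control TRAP and 663 ± 60.4 TPM in control retina (SD, n = 3 each). Fdps, whose level is uncertain as given below, was the largest term of both sums, at 72.1 and 132 TPM, and no sum without it was made. Rod TRAP thus held reads of every enzyme listed, 27 of the 29 genes at 5 TPM or more and the other two, Tm7sf2 and Nr1h3, below it.

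The order of levels in control TRAP began with Scap, Srebf1 and Npc1, each apart from the next in all 3 libraries, and ended with Insig1, Stard4, Nr1h3 and Tm7sf2. Of the 28 pairs of neighbours in that order, 19 overlapped between libraries. In control retina Fdps, Scap, Srebf1 and Srebf2 led and 26 of 28 neighbouring pairs overlapped. Insig1 stood in rank 26 of 29 in control TRAP, while it was among the first 8 in control retina. Fdps is uncertain: its scaled counts per TPM and exon length were 24.1 times below those of the median gene, the percentile 0.261 of 11857 genes. Whether reads shared with near-identical copies enter this was not tested.

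**Figure D1:**
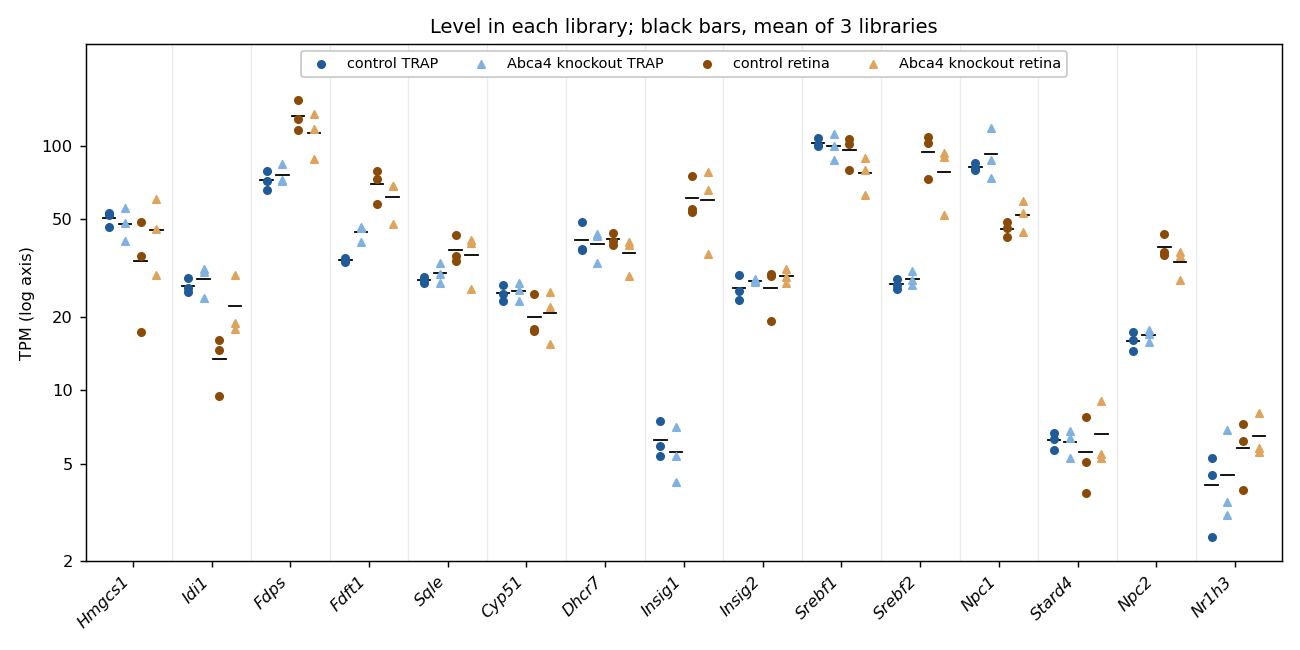
Levels of 15 of the genes in TPM on a log axis, 1 point per library and a black bar at the mean of the 3 libraries of each group. Insig1 lies between 4.2 and 7.5 TPM in the 6 TRAP libraries and between 36.1 and 78.2 TPM in the 6 retina libraries, the widest gap of the plot.

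Comparison of control TRAP with control whole retina asked where the transcripts sit. Relative to the median gene, 11 of the 29 were higher in TRAP (37.9%), 8 lower (27.6%) and 10 not called, with limma at an adjusted p under 0.05. Of all 16286 genes tested 36.6% were called higher and 38.8% lower, so the share higher is near that of all genes. The median log2 difference of the 29 genes was 0.12 and that of all genes -0.03. Genes of both signs were called among the mevalonate steps, the steps to lanosterol, the steps to cholesterol, SREBP control and transport. By the authors' own scaling, which sets the same total in every library of a fraction and puts the median of all genes at -0.62, the counts were 5 higher and 19 lower, and with log2(TPM + 1) they were 4 and 13. Of all genes tested, 12964 of 16286 were called either way by the authors' scaling and 10165 of 14442 in TPM. Idi1, Sc5d, Npc1 and Soat1 were called higher under all 14 alternatives tried, and Acat2, Mvk, Fdft1, Tm7sf2, Insig1, Srebf2 and Npc2 lower under all of them. Calls under all alternatives were not counted over all genes.

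**Figure D2:**
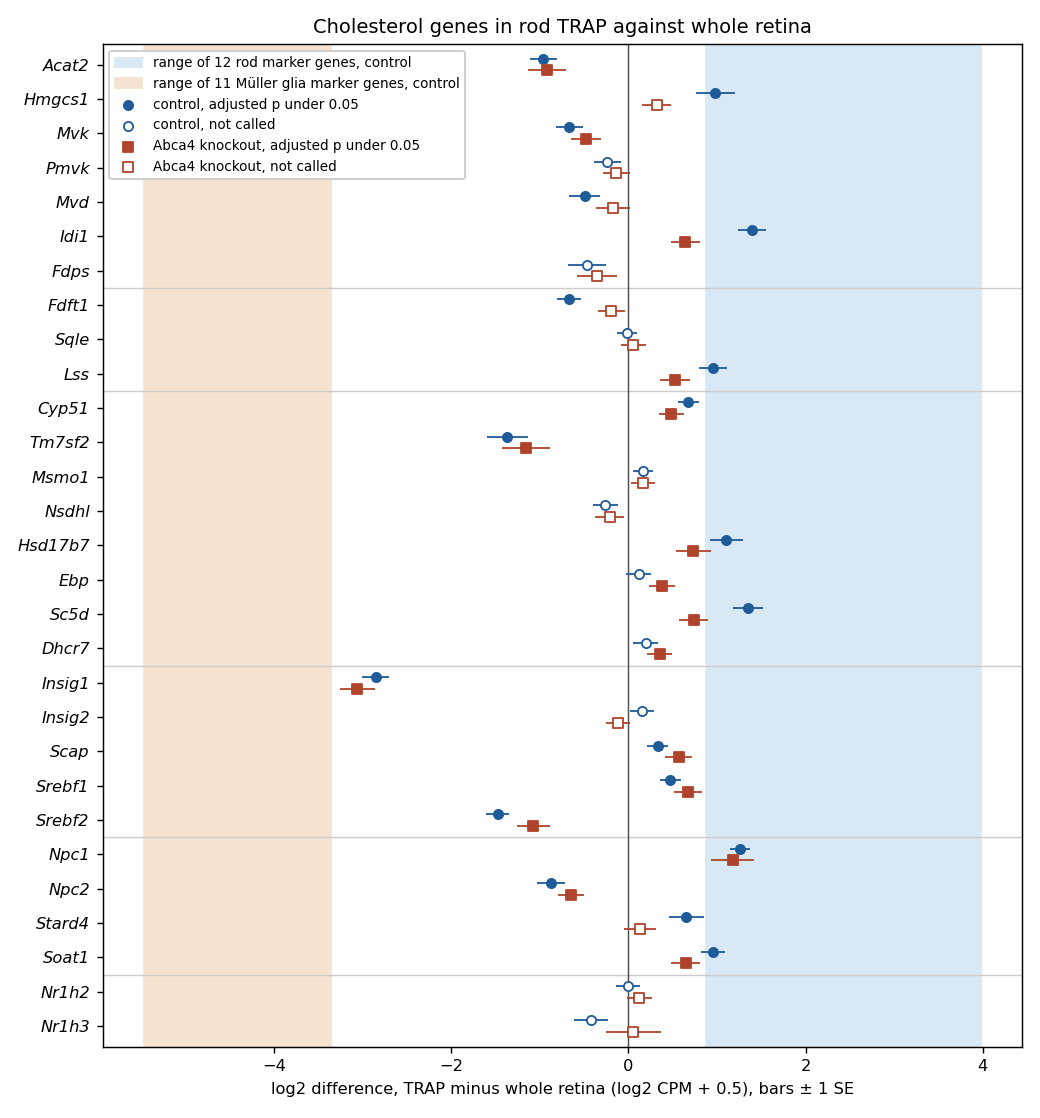
Log2 difference of each gene between TRAP and whole retina, with bars of 1 SE, in control (circles) and Abca4 knockout (squares) mice, filled where the adjusted p was under 0.05. Bands give the range of the 12 rod markers (0.88 to 3.98) and of the 11 Müller glia markers (-5.46 to -3.35) in control. Insig1 is the gene nearest to the Müller band but lies outside it, and ranges of other cell types are not drawn.

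Insig1 gave the largest difference of the 29. Its levels were 5.9, 5.4 and 7.5 TPM in control TRAP and 53.4, 74.9 and 55.0 TPM in control retina. The fractions did not overlap. The log2 difference was -2.85 (SE 0.15, adjusted p = 4.62e-09), 7.21-fold lower in TRAP, and it was lower in all 6 pairs of libraries with the same number, by -2.63 to -3.34. In TPM, the mean in TRAP was 10.3% of that in whole retina, beside 3.76% for the summed Müller markers, 183% for the rod markers, 8.71% for the amacrine markers and 21.3% for the bipolar markers. Single genes carried the last 2 sums in TRAP, Slc6a9 and Prkca, and without them the shares were 3.25% and 2.55%.

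Srebf2, which encodes the SREBP of sterol synthesis, was also lower in TRAP. It had 28.6, 26.8 and 25.9 TPM in control TRAP and 72.8, 107.9 and 102.0 TPM in control retina, with no overlap, and a log2 difference of -1.47 (SE 0.13, adjusted p = 3.96e-07). Srebf1 differed from it: its levels of 107.4, 100.2 and 99.5 TPM in TRAP overlapped the 79.6, 101.4 and 106.2 TPM of retina. Relative to the median gene Srebf1 was higher by 0.48 (SE 0.12, adjusted p = 0.00342), but the sign turned to -0.17 by the authors' scaling. In control TRAP Srebf1 stood above Srebf2 in every library, and in control retina the ranges of both overlapped.

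Scap, the SREBP escort, was at 114 ± 1.40 TPM in TRAP and 114 ± 6.23 TPM in retina (SD, n = 3). Its difference of 0.34 (SE 0.12, adjusted p = 0.0211) turned to -0.31 by the authors' scaling and to -0.005 in TPM, and the call held in 5 of 14 alternatives. Insig2, the second INSIG, had 25.5, 23.4 and 29.5 TPM in TRAP and 29.9, 29.3 and 19.1 TPM in retina. The libraries overlapped and the difference of 0.15 was not called (SE 0.13, adjusted p = 0.314). The INSIG genes thus had opposite levels by fraction, Insig2 above Insig1 in all 3 control TRAP libraries and Insig1 above Insig2 in all 3 control retina libraries.

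Of the 7 mevalonate genes 2 were higher in control TRAP, 3 lower and 2 not called, with a median of -0.47. Idi1, the isomerase that makes dimethylallyl diphosphate, had 28.7, 25.1 and 26.2 TPM in TRAP and 14.6, 16.1 and 9.5 TPM in retina. Every TRAP library was above every retina library, and the log2 difference was 1.40 (SE 0.16, adjusted p = 4.65e-06), 2.63-fold higher. Hmgcs1, the HMG-CoA synthase, had 52.9, 51.8 and 46.4 TPM in TRAP but 35.5, 48.8 and 17.3 TPM in retina. One retina library of Hmgcs1 overlapped TRAP in TPM, and the fitted difference was 0.98 (SE 0.22, adjusted p = 0.00125).

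Acat2, the cytosolic acetoacetyl-CoA thiolase, was lower in TRAP by -0.96 (adjusted p = 8.19e-05). Mvk and Mvd, the kinase and decarboxylase of mevalonate, were lower by -0.67 and -0.49 (adjusted p = 0.00171 and 0.0238), and the call of Mvd did not hold under all alternatives. Pmvk, the second kinase, was not called at -0.24. Fdps, which makes farnesyl diphosphate, had 71.8, 78.8 and 65.8 TPM in TRAP and 115.7, 128.1 and 152.8 TPM in retina. Those TPM did not overlap, yet its difference of -0.47 after trimmed mean scaling was not called (SE 0.21, adjusted p = 0.061). It was called lower in 7 of 14 alternatives, the replicate block and the TPM table among them, and it carries the doubt on its counts given above.

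From squalene to lanosterol the 3 enzymes split 3 ways. Fdft1, the squalene synthase, had 33.4, 34.1 and 34.6 TPM in control TRAP and 57.6, 73.2 and 78.4 TPM in retina, all lower in TRAP, with a difference of -0.67 (SE 0.14, adjusted p = 0.000563). Sqle, the rate-limiting squalene epoxidase, had 29, 27.5 and 28.3 TPM in TRAP and 35.5, 43.0 and 33.8 TPM in retina. After trimmed mean scaling Sqle sat near the median gene, at -0.01 (SE 0.12, adjusted p = 0.923). In TPM all its TRAP libraries were below those of retina, and it was called lower by the authors' scaling and in TPM. Lss, the lanosterol synthase, was higher by 0.96 (SE 0.16, adjusted p = 9.68e-05), and its call was lost under some alternatives.

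Of the 8 enzymes from lanosterol to cholesterol, 3 were higher, 1 lower and 4 not called, with a median of 0.18. Sc5d, the sterol desaturase, had 34.6, 32.1 and 38.9 TPM in TRAP and 19.6, 22.1 and 12.6 TPM in retina. No library overlapped and the difference was 1.35 (SE 0.16, adjusted p = 7.35e-06). Hsd17b7, a sterol ketoreductase, was higher by 1.10 (SE 0.18, adjusted p = 0.000123).

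Cyp51, the lanosterol demethylase, had 23.2, 24.7 and 26.8 TPM in TRAP and 17.8, 24.7 and 17.4 TPM in retina. In TPM its ranges overlapped from 23.2 to 24.7. The difference of 0.68 after trimmed mean scaling was called (SE 0.12, adjusted p = 0.000209), but the call was lost by the authors' scaling and in TPM. Tm7sf2, a sterol reductase, was lower by -1.36 (SE 0.24, adjusted p = 0.000158) at 2.57 ± 1.00 TPM in TRAP and 9.63 ± 2.67 TPM in retina. Lbr, a sterol reductase of the same step on the list of side branches, was at 12.3 ± 0.81 TPM in TRAP and 7.57 ± 1.31 TPM in retina, and was named after its values were seen. Its log2 difference was 1.00 (SE 0.15, adjusted p = 4.75e-05).

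Dhcr7, which reduces 7-dehydrocholesterol to cholesterol, had 48.7, 37.3 and 37.6 TPM in control TRAP and 39.3, 40.6 and 44.0 TPM in control retina. The fractions overlapped, at a difference of 0.19 (SE 0.14, adjusted p = 0.238). Msmo1 and Nsdhl, which remove the methyl groups at carbon C4, were at 0.17 and -0.26, and Ebp, the sterol isomerase, at 0.12, none of them called. By the authors' scaling Msmo1, Ebp, Dhcr7 and Insig2 were called lower instead, at -0.48, -0.52, -0.45 and -0.48.

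Among transport genes, Npc1, the membrane protein that releases cholesterol from lysosomes, was higher in control TRAP by 1.26 (SE 0.11, adjusted p = 3.83e-07), with 85.2, 79.1 and 80.9 TPM against 42.3, 48.5 and 46.1 TPM in retina. Npc2, the soluble lysosomal protein that hands cholesterol to NPC1, went the other way. It had 14.4, 17.3 and 16.1 TPM in TRAP and 35.7, 36.6 and 43.6 TPM in retina, a difference of -0.88 (SE 0.16, adjusted p = 0.000223). Neither gene's fractions overlapped.

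Soat1, which esterifies cholesterol, was higher by 0.96 (SE 0.13, adjusted p = 2.44e-05) at 8.03 ± 1.55 TPM in TRAP and 5.33 ± 0.38 TPM in retina. Stard4, a carrier of sterol in the cytosol, had 5.7, 6.7 and 6.3 TPM in TRAP and 5.1, 7.8 and 3.8 TPM in retina. Its TPM overlapped, and its difference of 0.65 (SE 0.20, adjusted p = 0.00911) was not called under all alternatives. The LXR genes were not called: Nr1h2 lay at -0.0024 (SE 0.14), and Nr1h3 at -0.42 (SE 0.19, adjusted p = 0.0673) with 2.5, 5.3 and 4.5 TPM in TRAP and 3.9, 6.2 and 7.3 TPM in retina.

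Set against the marker genes, 7 of the 29 (Hmgcs1, Idi1, Lss, Hsd17b7, Sc5d, Npc1 and Soat1) had control differences inside the rod marker range, 22 lay between the rod and Müller ranges, and 0 lay in the Müller range. The same count in knockout mice was 1, Npc1, with 28 between. The share of all genes inside these ranges was not counted, so the 7 cannot be read as a trait of the members. Of the 7, Hmgcs1 and Lss were not called by the authors' scaling or in TPM, and Hsd17b7 was not called in TPM. Other cell types were not part of this count. Insig1, at -2.85, lay inside the control ranges of amacrine cells (-5.7 to -1.68) and pigment epithelium (-5.66 to -1.42), among others. It lay outside those of ganglion cells and cones. Between TRAP and retina libraries of the same number, 12 genes were higher in all 6 pairs, 7 were lower in all 6 and 10 were mixed. That count was not made over all genes, so it has no background share beside it. The retina libraries varied more than those of TRAP for Hmgcs1, with SDs of 15.8 and 3.48 TPM in control. In control retina replicate 3, 8 of the 11 genes called higher were below the mean of the other 2 libraries. Their median deviation was -0.43, with Hmgcs1 at -0.98, and the 8 genes called lower had a median of 0.39. The median of all genes was -0.039. Since the calls used this same library, such a deviation is partly built in. Knockout TRAP replicate 1 also had 8 of the 11 below, at a median of -0.21, and control retina replicate 1 had all 8 called lower below, at -0.26. Without control retina replicate 3, 11 of the 29 genes were called higher and 10 lower, with no share of all genes beside them.

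**Figure D3:**
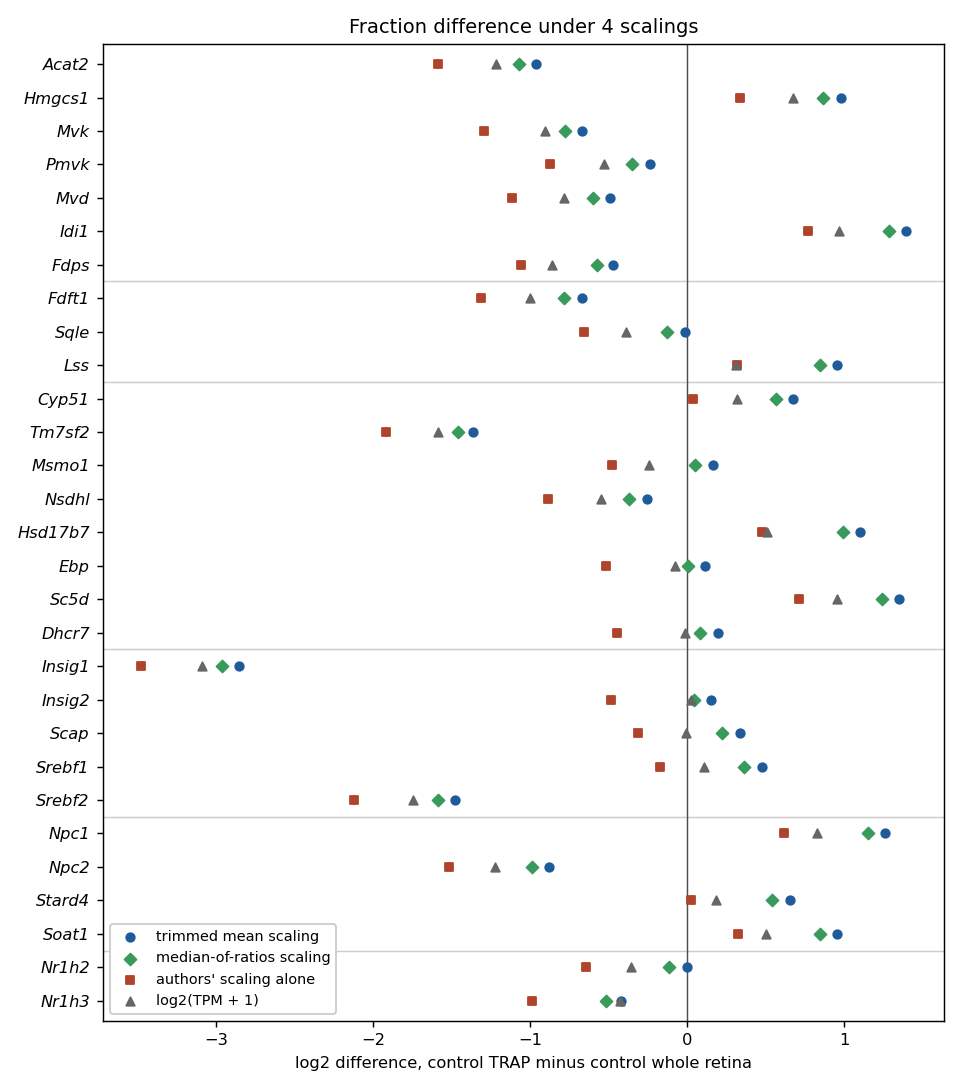
Control log2 difference of each gene between TRAP and whole retina under trimmed mean scaling, median-of-ratios scaling, the authors' scaling and the TPM table. The authors' scaling shifts the 29 genes to the left, from a median of 0.12 to -0.52, so that genes near 0 cross it while Idi1, Sc5d and Npc1 stay above and Insig1 and Srebf2 below.

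In Abca4 knockout mice the same comparison of fractions called 11 of 29 genes higher in TRAP (37.9%) and 6 lower (20.7%), where 30.4% and 33.7% of all 16036 genes tested were called. The libraries differ from those of the control comparison. Of the 29 genes, 9 were called higher in both genotypes, 6 lower in both and 8 in neither. Agreement between genotypes was not counted over all genes, so it has no background share beside it. Hmgcs1 and Stard4 were called higher, and Mvd and Fdft1 lower, in control but not in knockout mice, and Ebp and Dhcr7 higher in knockout but not in control mice. With the replicate block, and without knockout retina replicate 3, Hmgcs1 was called higher in knockout too. In knockout Ebp was called in 4 and Dhcr7 in 5 of 14 alternatives, and Ebp was lost without any 1 library. These calls were not shown to differ between genotypes, since the test of that difference called none of the 29.

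Insig1 was again the lowest, at 4.2, 7.1 and 5.4 TPM in knockout TRAP and 36.1, 65.5 and 78.2 TPM in knockout retina, with a difference of -3.06 (SE 0.20, adjusted p = 4.23e-07). Srebf2 had 26.9, 28.2 and 30.7 TPM in TRAP and 51.9, 92.8 and 89.8 TPM in retina, a difference of -1.07 (SE 0.18, adjusted p = 0.000416). Neither overlapped. Npc1 had 117.7, 86.9 and 73.6 TPM in TRAP and 59.2, 53.0 and 44.2 TPM in retina, higher by 1.18 (SE 0.24, adjusted p = 0.00147), and was the one gene called higher under all 14 alternatives.

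Idi1 and Sc5d were higher in knockout TRAP by 0.64 and 0.74 (SE 0.17 and 0.16, adjusted p = 0.00585 and 0.00237). Idi1 had 23.8, 31.3 and 30.5 TPM in TRAP and 17.8, 18.9 and 29.6 TPM in retina, with overlap in TPM through 1 retina library. Npc2 had 15.8, 16.9 and 17.6 TPM in TRAP and 28.1, 36.8 and 35.5 TPM in retina, lower by -0.65 (SE 0.15, adjusted p = 0.0026). Lss, Cyp51, Ebp and Dhcr7, called higher at 0.35 to 0.53, fell to -0.18 to -0.0035 by the authors' scaling. Under it 1 of the 29 genes was called higher and 14 lower, with the median of all genes at -0.49. No share of all genes called stands beside that count. In knockout retina replicate 1 the Müller markers summed to 2289 TPM, where the group reached 4022, and Srebf2 was lowest of that library's members at -0.60 from the mean of the other two. The part of cell makeup in this was not tested. Without that library 7 of the 29 genes were called higher and 6 lower, with no share of all genes beside them.

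Other genes of the pathway, on lists fixed by name, were read in the control fractions, where 36.6% of all genes were called higher and 38.8% lower. By the authors' scaling 12964 of all 16286 genes were called either way. Of 16 tested genes of precursors and side branches 8 were higher in TRAP and 3 lower (median 0.35). Pggt1b, a subunit of a prenyltransferase, was at 26.5 ± 0.61 TPM in TRAP and 2.80 ± 1.18 TPM in retina (log2 difference 3.95, adjusted p = 1.43e-09), and Ggps1, which makes geranylgeranyl diphosphate, at 57.5 ± 8.11 and 21.4 ± 6.08 TPM (2.07, adjusted p = 1.5e-07). Cyb5r3, the reductase that feeds electrons to sterol enzymes, was lower by -1.66 and Coq2, of ubiquinone synthesis, by -0.44. By the authors' scaling this list had 4 higher and 7 lower.

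Of 12 tested genes of SREBP processing and sterol-driven degradation 9 were higher and 0 lower (median 0.60). By the authors' scaling 3 were higher and 4 lower, with a median of -0.04, and in TPM 5 and 1. Mbtps2, the site-2 protease that frees SREBP, was at 9.93 ± 0.95 TPM in TRAP and 3.53 ± 0.67 TPM in retina, a difference of 1.71 (adjusted p = 9.67e-07). Fbxw7, which marks nuclear SREBP for degradation, was higher by 1.08 (adjusted p = 3.31e-05).

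Of 14 tested genes of uptake and intracellular transport 7 were higher and 4 lower (median 0.27), against 3 and 7 by the authors' scaling. Vldlr, a lipoprotein receptor, was at 193 ± 10.0 TPM in TRAP and 38.5 ± 6.81 TPM in retina (2.89, adjusted p = 2.92e-09), and Nceh1, a cholesteryl ester hydrolase, was higher by 1.65. Lrp1, a large endocytic receptor, was at 0.80 ± 0.78 TPM in TRAP and 34.1 ± 5.94 TPM in retina (-5.01, adjusted p = 2.44e-10). Lipa, the lysosomal acid lipase, was at 0.37 ± 0.12 and 11.5 ± 1.86 TPM (-3.91, adjusted p = 6.82e-09).

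Of 10 tested genes of efflux, oxysterols and LXR partners 3 were higher and 6 lower (median -0.75), and by the authors' scaling 1 and 7. Abcg1, a sterol exporter, was at 97.9 ± 8.21 TPM in TRAP and 48.8 ± 7.09 TPM in retina (1.19, adjusted p = 5.94e-07), and Mylip, a ligase that degrades lipoprotein receptors, was higher by 0.84 (adjusted p = 0.000204). The sterol hydroxylases Cyp27a1 and Cyp46a1 were lower by -3.03 and -1.15. Of 10 SREBP-1 lipogenic targets 5 were higher, among them Gpam (1.18) and Me1 (1.13), and 5 lower, among them Thrsp (-4.79) and Scd1 (-2.30). By the authors' scaling 2 of them were higher and 5 lower.

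Genotype was compared within each fraction. In TRAP 0 of the 29 genes were called, beside 1.13% of all 13104 genes tested, and the differences between knockout and control ran from -0.24 to 0.44 on the log2 scale (median SE 0.11). In whole retina 0 of 29 were called, beside 0.106% of 16964 genes, with differences from -0.39 to 0.78 (median SE 0.19). At an unadjusted limma p under 0.05 there were 3 of the 29 genes in TRAP (Fdft1, Msmo1 and Sc5d) and 1 in retina (Idi1). Of all genes tested, 1368 of 13104 in TRAP and 2034 of 16964 in retina were under that threshold. The 95% intervals of the 29 genes reached from -0.53 for Insig1 to 0.96 for Nr1h3 in TRAP, and from -0.86 for Srebf2 to 1.26 for Idi1 in retina. Without the libraries labelled knockout replicate 3 the count of called genes was again 0 in both fractions.

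**Figure D4:**
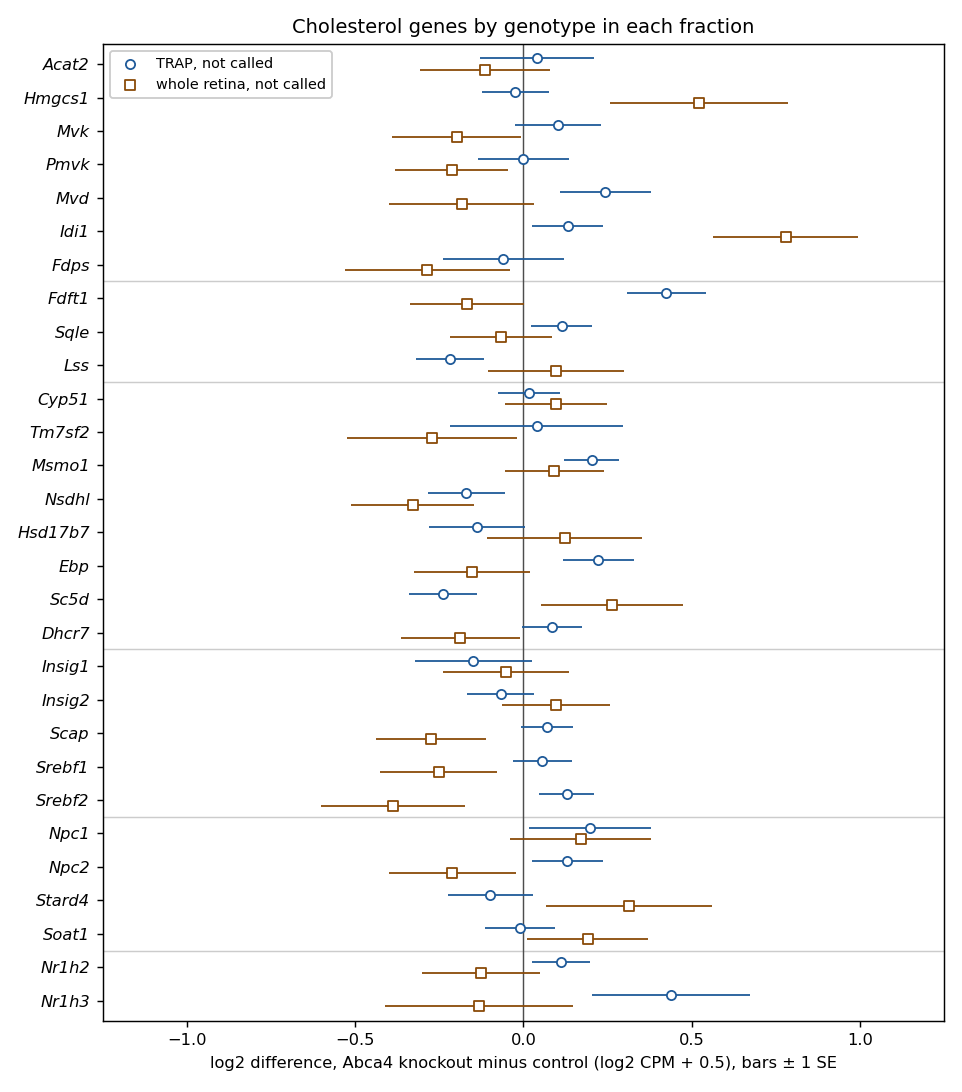
Log2 difference between Abca4 knockout and control in TRAP (circles) and whole retina (squares), with bars of 1 SE. All symbols are open because 0 of 29 genes were called in either fraction, and Fdft1 in TRAP (0.42) and Idi1 in retina (0.78) lie among those furthest from 0.

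Fdft1 was the member with the lowest adjusted p by genotype. It had 46.6, 40.3 and 45.9 TPM in knockout TRAP, above all of the 33.4, 34.1 and 34.6 TPM of control TRAP, with a difference of 0.42 (SE 0.12, adjusted p = 0.17). Without knockout TRAP replicate 1 it was called, at 0.29 (adjusted p = 0.0298), and in no other of the 14 alternatives, and without replicate 3 it was at 0.43 (adjusted p = 0.234). In whole retina Fdft1 overlapped between genotypes, at 47.7, 68 and 68.3 TPM in knockout and 57.6, 73.2 and 78.4 TPM in control, with a difference of -0.17 (adjusted p = 0.655).

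Idi1 gave the widest gap in whole retina, where all of 17.8, 18.9 and 29.6 TPM in knockout were above the 14.6, 16.1 and 9.5 TPM of control, at 0.78 (SE 0.21, adjusted p = 0.4). Without knockout replicate 3 it was at 0.66 (adjusted p = 0.648). In TRAP its difference was 0.13 (adjusted p = 0.728). The lowest control library was replicate 3, which stood low for other genes called higher in rods as well, though those calls used that library. Hmgcs1, also low in that library, had 29.6, 45.5 and 60.4 TPM in knockout retina against 35.5, 48.8 and 17.3 TPM in control, which overlap, with a difference of 0.52 (adjusted p = 0.428), and of 0.39 (adjusted p = 0.683) without knockout replicate 3. In TRAP Hmgcs1 had 40.6, 48.1 and 55.3 TPM in knockout against 52.9, 51.8 and 46.4 TPM, at -0.02.

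Genotypes did not overlap between libraries for 8 of 29 genes in TRAP (27.6%), beside 17.6% of all genes tested, and for 5 in retina (17.2%), beside 19.9%. Msmo1 and Nsdhl, partners in removing the C4 methyl groups, were apart in both fractions after trimmed mean scaling. Before that scaling Msmo1 overlapped in retina, at 932, 1210 and 1174 scaled counts in knockout and 973, 1112 and 1015 in control. Msmo1 was at 0.20 in TRAP and 0.09 in retina (adjusted p = 0.409 and 0.782), and Nsdhl was at -0.17 and -0.33 (adjusted p = 0.66 and 0.456). Without knockout replicate 3 Msmo1 was at 0.20 and 0.10 and Nsdhl at -0.17 and -0.31. In TPM Msmo1 had 43.4, 56.2 and 55.0 in knockout TRAP and 53.7, 46.2 and 42.4 in control TRAP, which overlap. In retina its 44.3, 60.7 and 64.0 TPM in knockout also overlapped the 52.2, 64.8 and 52.1 TPM of control. Nsdhl had 10.0, 10.9 and 11.5 TPM in knockout TRAP, all below the 12.8, 12.3 and 13.1 TPM of control, and 11.5, 17.8 and 17.0 TPM in knockout retina, below 18.3, 18.9 and 20 TPM.

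Of the remaining genes read library by library, knockout TRAP and retina had for Sqle 27.3, 29.8, 33.2 and 25.9, 40.0, 41.1 TPM, and for Cyp51 23.2, 27.3, 25.7 and 15.4, 21.8, 25.1 TPM. Knockout retina replicate 1 was the lowest for both. Dhcr7 had 33.1, 42.6 and 43.4 TPM in knockout TRAP and 29.3, 40.4 and 39.3 TPM in knockout retina. Insig2 was steady at 27.9, 27.6 and 28.6 TPM in TRAP and 27.3, 31.2 and 29.1 TPM in retina. For Srebf1 the values were 87.0, 111 and 100 TPM in knockout TRAP and 62.8, 88.9 and 79.2 TPM in knockout retina, overlapping control in both fractions. Fdps had 72.1, 71.3 and 83.7 TPM in knockout TRAP and 87.7, 134.1 and 116.5 TPM in knockout retina.

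Stard4 in knockout had 5.3, 6.4 and 6.8 TPM in TRAP and 5.3, 5.5 and 9.0 TPM in retina. Nr1h3, the LXR of lower level, had 6.9, 3.5 and 3.1 TPM in knockout TRAP and 5.6, 8.1 and 5.8 TPM in knockout retina, and each overlapped control in TPM. On scaled counts Nr1h3 was apart by genotype in TRAP at 0.44 (SE 0.24, adjusted p = 0.561), and at 0.57 (adjusted p = 0.428) without knockout replicate 3. The 7 cone markers, none called, all had an unadjusted p under 0.05 in this TRAP comparison, as did 1368 of all 13104 genes. They had a median of 0.44 and sums of 463 to 588 TPM in knockout against 387 to 414 TPM in control. Without knockout replicate 3 their median was 0.42 and 2 of 7 were called. Their part in the differences of the 29 genes was not tested.

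The difference between the fraction effects of both genotypes, an interaction across all 12 libraries, called 0 of 29 genes, beside 0.00579% of 17273 genes. At an unadjusted p under 0.05 there were 3 of the 29, beside 1952 of all 17273 genes. They were Idi1 at -0.67, Fdft1 at 0.57 and Sc5d at -0.53 (adjusted p = 0.407, 0.407 and 0.435). Of the other pathway genes, Gramd1a, a sterol carrier at membrane contacts, was lower in knockout TRAP by -1.001 (SE 0.17, adjusted p = 0.0185), the single call by genotype in TRAP on the 5 lists, which had 0 calls in retina. Without knockout replicate 3 it was at -0.79 (adjusted p = 0.0132), and it was named after its values were seen.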

How the data were processed

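The 12 libraries came from 4 groups of 3. Per the labels, RNA was amplified with a low-input kit for polyA RNA, and the submitters' processing notes name CASAVA 1.8.2, HISAT2, DESeq2 and edgeR and the build GRCm39, with no role. The deposited gene table holds a score per gene, counts that the authors multiplied by 1 factor per library and rounded, so that TRAP columns total 17096515 to 17097707 and retina columns 17860761 to 17862326. The deposited TPM table was made by the authors to 1 decimal and served for levels between genes. From gaps in low values, 16200000 to 18200000 reads were estimated for 3 TRAP libraries and 14800000 to 23200000 for 5 retina libraries, while for the other four the factor was too close to 1 to read. More deeply read libraries carry less counting error.

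Scaled values were set to CPM with trimmed mean scaling (trims 0.3 and 0.05), kept at 10 or more in 3 or more libraries and tested as log2(CPM + 0.5) with limma 3.58.1 in R 4.3.3, with trend and robust settings and Benjamini-Hochberg adjustment over all genes. Count models were not used, since the values are not counts. A log2 difference on this scale understates the change of low genes. Fraction differences are relative to the median gene. The labels do not say whether libraries came from separate animals, so p-values measure the spread between these samples. Samples were grouped by title. Libraries with the same number deviated together across fractions (r of 0.143 to 0.158 in control and 0.2 to 0.557 in knockout over 11738 genes). For knockout TRAP number 2, at r = 0.2, a retina library of another number was closer, so pairing by number was assumed there. Across genotypes the own number was closest for TRAP number 2 (r = 0.087) and retina number 1 (r = 0.321). The latter r was above those of the control fractions. For the other numbers r across genotypes was -0.515 to -0.017.

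The members, lists and tests were chosen with earlier results of these data known. Values in every library were given for 14 genes named in advance and any gene apart by genotype in both fractions. Those of Npc1 were given outside this rule. Pathway genes were named as the 2 largest rises and falls of each list, called and at 5 TPM or more in the higher group. Alternatives were other scalings, filters and pseudocounts, the TPM table, 1 fit of all libraries, a replicate block and each library left out. Values of list genes without knockout replicate 3 and marker sums without their leading gene were added after seeing the data. The limma fit and the estimate of depth were each tested on simulated data.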

Additional observations from a re-analysis of the deposited data

How the results depend on the processing

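Counts of members called kept within 1.5 times under median-of-ratios scaling, both other filters, the larger pseudocount and the fit of all 12 libraries. By the authors' scaling, control fractions gave 5 higher and 19 lower and knockout fractions 1 higher and 14 lower. With log2(TPM + 1) they gave 4 higher and 13 lower in control and 1 higher in knockout. Of all genes tested in control, 12964 of 16286 were called either way by the authors' scaling and 10165 of 14442 in TPM. The median of all genes was -0.62 in control and -0.49 in knockout by the authors' scaling, and -0.25 and -0.15 in TPM. Signs turned by the authors' scaling in control for Msmo1 (-0.48), Ebp (-0.52), Dhcr7 (-0.45), Insig2 (-0.48), Scap (-0.31) and Srebf1 (-0.17), and in TPM for Scap (-0.005), Msmo1 (-0.24), Ebp (-0.08) and Dhcr7 (-0.01). In knockout they turned by it for Sqle (-0.48), Lss (-0.0035), Cyp51 (-0.0508), Ebp (-0.15), Dhcr7 (-0.18), Nr1h2 (-0.41), Hmgcs1 (-0.21), Msmo1 (-0.37), Stard4 (-0.39) and Nr1h3 (-0.42), in TPM for Msmo1 (-0.12), Nr1h2 (-0.09), Nr1h3 (-0.50), Sqle (-0.21) and Stard4 (-0.06), and by median-of-ratios scaling for Nr1h3 (-0.03) and Sqle (-0.04).

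Leaving out 1 library gave 10 to 11 higher and 7 to 10 lower in control, and 7 to 10 higher and 5 to 6 lower in knockout. The 7 came without knockout TRAP replicate 2 or 3 or knockout retina replicate 1. By genotype in TRAP 0 to 1 was called higher, Fdft1 without knockout TRAP replicate 1, and in retina and for the interaction 0 were called in every setting. The replicate block, which pairs the fractions by library number, gave 11 higher and 9 lower in control. It gave 12 and 6 in knockout, and no genotype or interaction call appeared. The order of members by CPM was not run, since CPM is not per length. With 3 libraries per group, genes of low level such as Tm7sf2 and Nr1h3 have the widest errors.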
